A study of Mus musculus with 20 samples.

Results

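The 36 genes of the cell cycle and of DNA replication described here were chosen by name among 34745 genes on a whole-genome mouse array: every non-control probe named for one of them in the scanner files, with Cdk1 also as Cdc2a. Their levels were read in liver RNA of 20 male mice, 4 in each of 5 inbred strains, with 1 single-colour (Cy3) array per mouse. The strains were NZO/HiBomDife (NZO), labelled as obese and susceptible to diabetes, DBA/2J (DBA) and C3HeB/FeJ (C3H), labelled as susceptible, and C57BL/6 (B6) and 129P2/OlaHsd (129Ola), labelled as lean and resistant. All mice ate a diet with 45% fat, no group had another diet or treatment, and liver was taken at week 6, which the labels give both as the age and as the end of the diet. A strain here stands for a whole inbred genome, not for 1 allele. Of the 36 genes, 2 act in G1 (Ccnd1 and Cdkn1a), 17 in or at the entry to S phase and 17 in G2 or mitosis.

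Most hepatocytes of a grown liver rest outside the cell cycle, while liver that is still growing, or that lost mass, holds cells that replicate DNA and divide or become polyploid. Entry runs through cyclin D and the release of E2F factors, which switch on genes for the helicase, nucleotide supply and the replication fork. Genes of mitosis follow later, under the activating complex of B-MYB and FOXM1, and are held down in resting cells by the DREAM complex, which binds CHR elements close to the start site, while CCAAT boxes near them are bound by the activator NF-Y. The 2 groups of genes can therefore be read as separate steps of the same cycle.

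The promoter letters of 6 genes are shown because all 6 differed between DBA and B6, and because CHR and E2F elements mark the 2 steps. Windows of 300 bases, from 250 before to 50 after the start, came from RefSeq (GRCm38.p6) and covered 29 of the 36 genes, 15 of them S-phase and 13 mitotic. Printed are the 120 bases directly before the start, 5′ to 3′ on the gene's strand, with matches on either strand in capitals: CHR (TTTGAA or TTCGAA), the CCAAT box (CCAAT) and E2F (TTTCCCGC, TTTGGCGC, TTTCGCGC or TTTGCCGC). The windows lie at chr4:118437344-118437463 (Cdc20, minus strand), chr11:99024190-99024309 (Top2a, minus), chr7:135716380-135716499 (Mki67, minus), chr13:100786487-100786606 (Ccnb1, minus), chr12:24708134-24708253 (Rrm2, plus) and chr1:128359706-128359825 (Mcm6, minus).
Cdc20: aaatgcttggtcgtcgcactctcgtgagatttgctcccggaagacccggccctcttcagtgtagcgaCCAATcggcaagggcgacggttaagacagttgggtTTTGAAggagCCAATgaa
Top2a: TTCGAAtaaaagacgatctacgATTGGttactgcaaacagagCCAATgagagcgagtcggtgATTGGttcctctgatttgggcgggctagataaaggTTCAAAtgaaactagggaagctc
Mki67: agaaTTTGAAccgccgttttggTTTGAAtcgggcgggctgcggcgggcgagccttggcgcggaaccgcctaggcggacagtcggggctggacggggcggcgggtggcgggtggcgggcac
Ccnb1: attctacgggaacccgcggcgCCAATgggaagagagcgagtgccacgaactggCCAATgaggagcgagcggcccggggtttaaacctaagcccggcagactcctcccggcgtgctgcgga
Rrm2: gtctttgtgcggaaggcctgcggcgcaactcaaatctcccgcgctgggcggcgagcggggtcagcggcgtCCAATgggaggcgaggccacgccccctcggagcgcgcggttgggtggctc
Mcm6: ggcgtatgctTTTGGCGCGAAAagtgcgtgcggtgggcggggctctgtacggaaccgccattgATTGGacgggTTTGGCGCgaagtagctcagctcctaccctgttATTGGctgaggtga
In the Mcm6 window the matches at -110 and -106, which overlap on opposite strands, and the match at -47 are E2F letters, and the others are CCAAT boxes. A gene was counted where any of its windows held a match, Mcm7 having 2 windows. CHR letters stood in 10 of 13 mitotic and 3 of 15 S-phase genes, against 21.7% of all 27025 genes in the table. A CCAAT box stood in 11 of 13 mitotic and 9 of 15 S-phase genes, against 41.1% of all. E2F letters stood in 1 of 13 mitotic and 5 of 15 S-phase genes, against 2.61% of all. Among mitotic genes with a window, CHR letters stood in 4 of the 6 found lower in DBA than in B6. They also stood in 6 of the other 7, of which Cdk1, Bub1, Bub1b and Kif11 were too dim to test. The other 7 are therefore not genes shown to be unchanged. These are matches of letters, not measured binding.

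Hepatocyte markers such as Alb and Ttr were well above background on all arrays, and their mean level lay between 8.21 and 8.54 in every mouse, so the arrays read liver in all 5 strains. A level is the log2 signal of a probe minus the 75th percentile of its array, so that 0 is a probe at that percentile, and levels are compared between mice and never between genes. Between 40.0 and 59.1% of all probes were well above background on an array, with the lower shares in C3H and 129Ola. Both of these strains, read with another version of the extraction software, were each scanned on a day of their own, so for C3H against 129Ola the strain and the scan day cannot be told apart. For either of them against NZO, DBA or B6, the strain cannot be told apart from the software version and scan day. Per mouse, 15 of the 17 S-phase genes were well above background in NZO, DBA and B6, 14 to 16 in C3H and 13 to 14 in 129Ola. Of the 17 mitotic genes, 11 to 13 were above background in NZO mice, 10 to 13 in DBA, 12 to 15 in B6, 6 to 10 in C3H and 4 to 8 in 129Ola.

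Of the 36 genes, 29 passed the filter on dim probes, which kept a gene well above background in all 4 mice of 1 strain or more, and were tested, 15 of them S-phase and 12 mitotic. The 7 that did not are the cyclin Ccne2, the licensing factor Cdc6, the mitotic kinases Cdk1, Aurkb, Bub1 and Bub1b, and the spindle motor Kif11. Among them, Ccne2, Aurkb and Bub1 were above background on no array. Each comparison was tested with limma over all 20624 genes that passed, with a call at an adjusted p of at most 0.05, and log2 differences carry their standard error (SE, 4 mice per strain).

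The mean over the S-phase genes was close in all strains: -0.07 ± 0.07 in NZO, -0.32 ± 0.20 in DBA, -0.24 ± 0.06 in B6, -0.13 ± 0.20 in C3H and -0.40 ± 0.11 in 129Ola (SD, n = 4 mice each). Mean levels over the 17 mitotic genes were further apart: -2.49 ± 0.36 in NZO, -3.01 ± 0.45 in DBA, -2.21 ± 0.30 in B6, -2.84 ± 0.34 in C3H and -3.27 ± 0.26 in 129Ola. DBA mice ranged from -3.43 to -2.37 and B6 mice from -2.49 to -1.84, so that 1 DBA mouse reached into the range of B6. These means include genes below background, whose values there have no order.

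**Figure D1:**
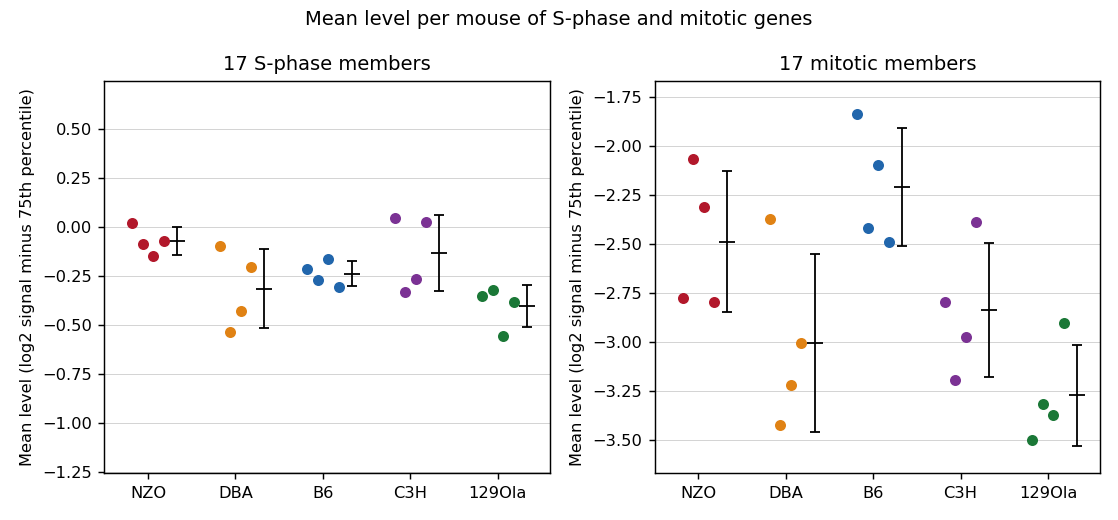
Mean level per mouse of the 17 S-phase genes (left) and the 17 mitotic genes (right), in log2 signal minus the array's 75th percentile, with a point per mouse and a bar for the mean ± SD of 4 mice. The 4 B6 mice lie between -2.49 and -1.84 in the right panel and the 4 129Ola mice between -3.50 and -2.91, while the S-phase means of all 20 mice lie between -0.56 and 0.05.

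DBA liver had less RNA of many mitotic genes than B6 liver. Of the 12 mitotic genes tested, 8 fell and none rose in DBA: Mki67, Top2a, Ccna2, Ccnb1, Cdc20, Plk1, Kif20a and Nusap1. Top2a passed the filter on dim probes only through B6, the strain where it was highest, so its fall is not independent of the filter. Of the 15 S-phase genes tested, the helicase subunit Mcm6 and the reductase subunit Rrm2 fell and Mcm3 rose by 1 of its 2 probes, and Ccnd1, the cyclin of G1, fell as well. Over all members 11 fell and 1 rose, where 8.09% of the 20624 genes tested fell and 7.28% rose, 15.4% in all. All 17 mitotic genes, tested or not, had a median log2 difference of -1.13 and the 17 S-phase genes one of 0.01, beside 0.05 over all genes on the array. The mitotic median was -0.31 with normexp background correction and -0.68 in the authors' table. In bulk liver, fewer cells in mitosis and less RNA per cell cannot be told apart.

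Cdc20, the activator of the ligase that ends mitosis, had levels of -0.57, -1.52, -1.58 and -1.17 in DBA mice 5, 8, 9 and 15, against 0.77, 0.08, 0.36 and 0.37 in B6 mice 9, 10, 11 and 15. Every DBA mouse lay below every B6 mouse. The difference was -1.60 ± 0.35 (adjusted p = 0.00321), a level 3.04-fold lower in DBA, and this call held in each alternative run and without any one mouse. Plk1, a kinase that drives entry into and exit from mitosis, had levels of -1.77, -3.70, -3.00 and -2.74 in DBA mice, against -0.86, -1.13, -1.03 and -1.41 in B6 mice. The groups did not overlap, although DBA 5 came close to the lowest B6 mouse, and 3 of 4 DBA mice were above background. Plk1 was 3.24-fold lower in DBA (-1.69 ± 0.29, adjusted p = 0.000377).

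Mki67, whose protein coats mitotic chromosomes and marks cycling cells, had levels of -0.86, -1.58, -1.41 and -1.78 in DBA mice, against 0.14, -0.37, -0.35 and -0.14 in B6 mice. No DBA value reached the B6 range, and the difference was -1.23 ± 0.36 (adjusted p = 0.0253), a call lost in 5 of 20 runs that each left out 1 mouse. The second Mki67 probe of the array gave -1.20 (adjusted p = 0.0141 over probes). Cyclin B1, the regulatory subunit of the mitotic kinase CDK1, fell by 1.19 ± 0.32 (Ccnb1, adjusted p = 0.0136), with -2.53, -3.40, -2.28 and -2.43 in DBA mice and -1.29, -1.57, -1.33 and -1.68 in B6 mice. Here too the mice did not overlap, but the call was lost without DBA 8 (adjusted p = 0.0571). Nusap1, a spindle microtubule binder, fell by 1.44 ± 0.36 (adjusted p = 0.00921) and was above background in 1 of 4 DBA mice and in all B6 mice. Kif20a, a motor of the central spindle, fell by 1.13 ± 0.31 (adjusted p = 0.0169), a call lost in 3 of 20 such runs.

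Top2a, the topoisomerase that untangles sister chromatids, and Ccna2, the cyclin of S phase and G2, passed the threshold with mice that overlapped. Top2a had -3.00, -5.85, -4.17 and -4.87 in DBA mice, against -2.92, -3.28, -3.06 and -3.16 in B6 mice, and 1 of 4 DBA mice was above background. The log2 difference of Top2a was -1.37 ± 0.45 (adjusted p = 0.0469), a call lost in 16 of 20 such runs. Ccna2 differed by -1.26 ± 0.40 (adjusted p = 0.0394), a call lost in 6 of 20 such runs. Mitotic genes that did not pass included the B-type cyclin Ccnb2 (-0.10 ± 0.27), the factor Foxm1 (-0.09 ± 0.24), the inhibitor of apoptosis Birc5 (-0.64 ± 0.29) and the spindle kinase Aurka (-0.67 ± 0.28, with DBA mice all below B6 mice). Foxm1 and Birc5 have a dimmer second probe, which gave -1.19 and -1.15 (adjusted p = 0.12 and 0.131 over probes). Without DBA 8 the count of genes called fell to 7, and without DBA 5 it was 13.

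**Figure D2:**
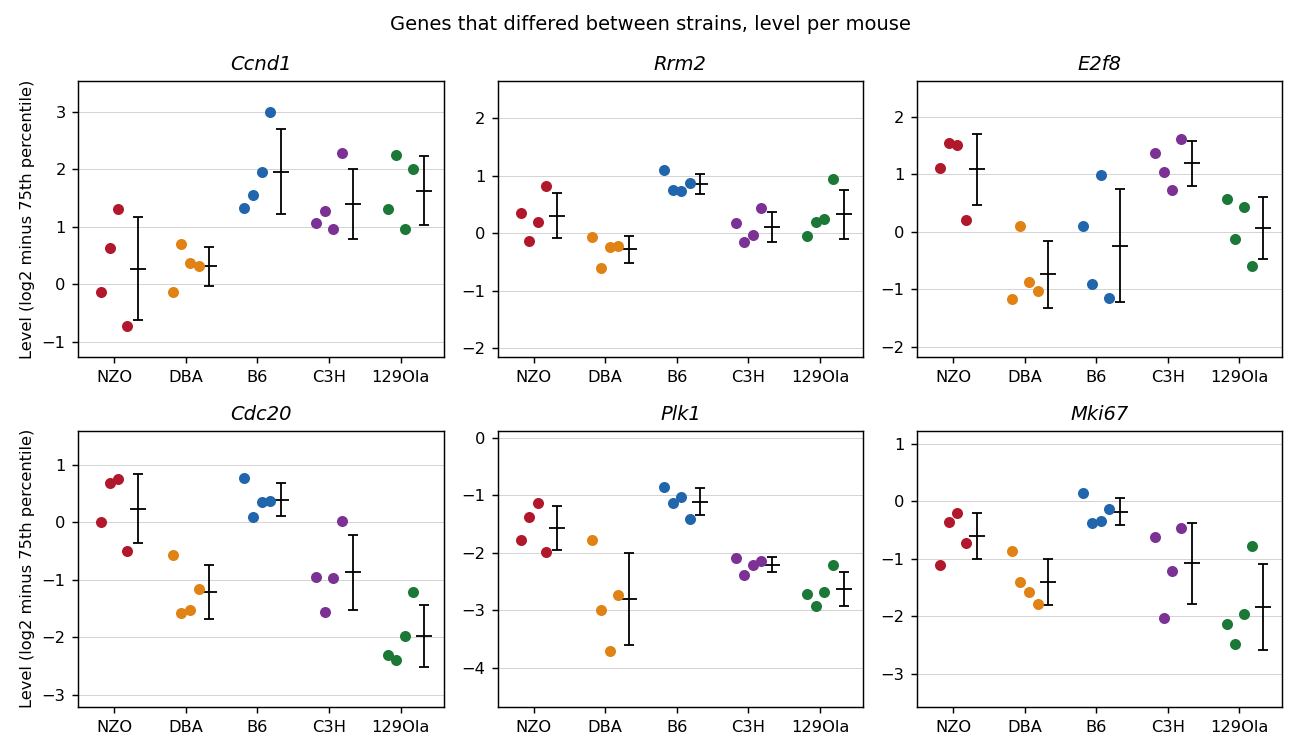
Level per mouse of 6 genes that differed between strains, in log2 signal minus the array's 75th percentile, with a point per mouse and a bar for the mean ± SD of 4 mice. DBA mice lie below all B6 mice for Ccnd1, Rrm2, Cdc20, Plk1 and Mki67, and NZO mice lie above all DBA mice for E2f8 and Cdc20.

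Rrm2, the regulated subunit of ribonucleotide reductase, had levels of -0.06, -0.23, -0.61 and -0.22 in DBA mice, against 1.10, 0.75, 0.73 and 0.88 in B6 mice. The groups lay well apart, and Rrm2 was 2.21-fold lower in DBA (-1.14 ± 0.21, adjusted p = 0.000782). Its partner Rrm1, the large subunit, differed by 0.23 ± 0.11 (adjusted p = 0.21). Most of the other S-phase genes lay close: the sliding clamp Pcna differed by -0.06 ± 0.10, the factor E2f1 by -0.08 ± 0.12, the thymidylate synthase Tyms by -0.02 ± 0.35 and thymidine kinase, Tk1, by 0.28 ± 0.16, with adjusted p between 0.285 (Tk1) and 0.983 (Tyms) among these 4.

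DBA 8 and DBA 15 shared a slide and scan day 3 with no mouse of another strain, so for them the strain and the scan day cannot be told apart. Within a scan day that held both strains, the median difference of the mitotic genes was -0.95 (day 1, 1 DBA and 2 B6 mice) and -0.46 (day 2, 1 DBA and 2 B6 mice), and that of Cdc20 was -1.81 and -1.13. With scan day as a block over the arrays of NZO, DBA and B6, the mitotic median was -0.78 and the calls of Ccnb1, Ccnd1 and Top2a were lost. With slide as a random block those of Mki67, Ccna2, Ccnb1 and Top2a were lost, and the authors' table lost Ccna2 and Nusap1.

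NZO liver differed from B6 liver in 4 of these genes. None of the 12 mitotic genes tested passed in NZO against B6, and none had an unadjusted p under 0.05, although 14 of all 17 had a negative difference, with a median of -0.42. Of the S-phase genes, Rrm1, E2f8 and, by 1 of its 2 probes, Mcm3 rose in NZO, and of the G1 genes Ccnd1 fell. That is 3 higher and 1 lower of 29 genes tested, where 9.72% of all genes tested were higher and 8.57% lower, 18.3% in all, so the count lies near the background. With arrays scaled to the probes detected on all of them, 1560 of all genes were higher and 2456 lower, where it was 2005 and 1767, and 2 members passed. The S-phase median was 0.09, beside 0.10 over all genes on the array.

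Ccnd1 encodes cyclin D1, which links growth signals to the start of the cycle, and was read by a probe at chr7:152116202-152116261 (mm9). Its levels were -0.13, 0.63, 1.31 and -0.73 in NZO mice 3, 7, 9 and 11 and -0.14, 0.36, 0.69 and 0.32 in DBA mice, against 1.32, 1.56, 1.96 and 2.99 in B6 mice. All 4 mice of both strains lay below all B6 mice, though NZO 9 came close to the lowest of them. Ccnd1 was 3.22-fold lower in NZO (-1.69 ± 0.44, adjusted p = 0.0116) and 3.13-fold lower in DBA (-1.65 ± 0.44, adjusted p = 0.0146), 2 differences that share the B6 mice. Without B6 15, the highest mouse, the DBA call was lost (adjusted p = 0.0604) and the NZO call was kept. The DBA call was also lost with scan day as a block and the NZO call with only the arrays of NZO and B6. In C3H against 129Ola the Ccnd1 difference was -0.23 ± 0.44 (adjusted p = 0.702).

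E2f8, an atypical E2F that represses E2F targets and takes part in hepatocyte polyploidy in mice, had levels of 1.11, 1.54, 1.50 and 0.21 in NZO mice, against -1.18, -0.86, 0.11 and -1.02 in DBA mice and 0.10, -0.91, 0.99 and -1.14 in B6 mice. Every NZO mouse lay above every DBA mouse, while B6 mice spread from -1.14 to 0.99. E2f8 was 3.56-fold higher in NZO than in DBA (1.83 ± 0.43, adjusted p = 0.00565) and 2.52-fold higher than in B6 (1.33 ± 0.43, adjusted p = 0.0407), the second call being lost in 7 of 20 runs without 1 mouse. Both E2f8 calls were lost with scan day as a block, and NZO minus DBA was 0.84 on day 1 (3 NZO mice and 1 DBA mouse) and 2.71 on day 2 (1 of each). Rrm1 was higher in NZO than in B6 by 0.33 ± 0.11 (adjusted p = 0.0459), a call lost in 14 of 20 such runs. Cdkn1a differed by 1.14 ± 1.05 between NZO and B6 (adjusted p = 0.516).

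NZO and DBA, both susceptible, were compared directly, in a comparison that shares mice with both above. Of 29 genes tested, 5 were higher in NZO and none lower: Mcm6, E2f8, Ccnb1, Cdc20 and Plk1, where 9.76% of all genes tested were higher and 8.27% lower, 18% in all. Taken in both directions, the count lies near the background. The mitotic median was 0.55 and the S-phase median 0.10, beside 0.03 over all genes on the array. Cdc20 had levels of 0.01, 0.68, 0.75 and -0.50 in NZO mice, against -1.58 to -0.57 in DBA mice, and every NZO mouse lay above every DBA mouse. The log2 difference was 1.45 ± 0.35 for Cdc20 (adjusted p = 0.00647), 1.24 ± 0.29 for Plk1 (adjusted p = 0.00548) and 1.02 ± 0.32 for Ccnb1 (adjusted p = 0.032). Plk1 overlapped, since NZO 11, at -1.98, lay below DBA 5. The Ccnb1 call was lost without NZO 3, 7 or 9 or DBA 8, each in turn. With scan day as a block 2 of the 5 calls were left, Mcm6 and Cdc20, and with only the arrays compared Plk1 and Ccnb1 were lost.

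**Figure D3:**
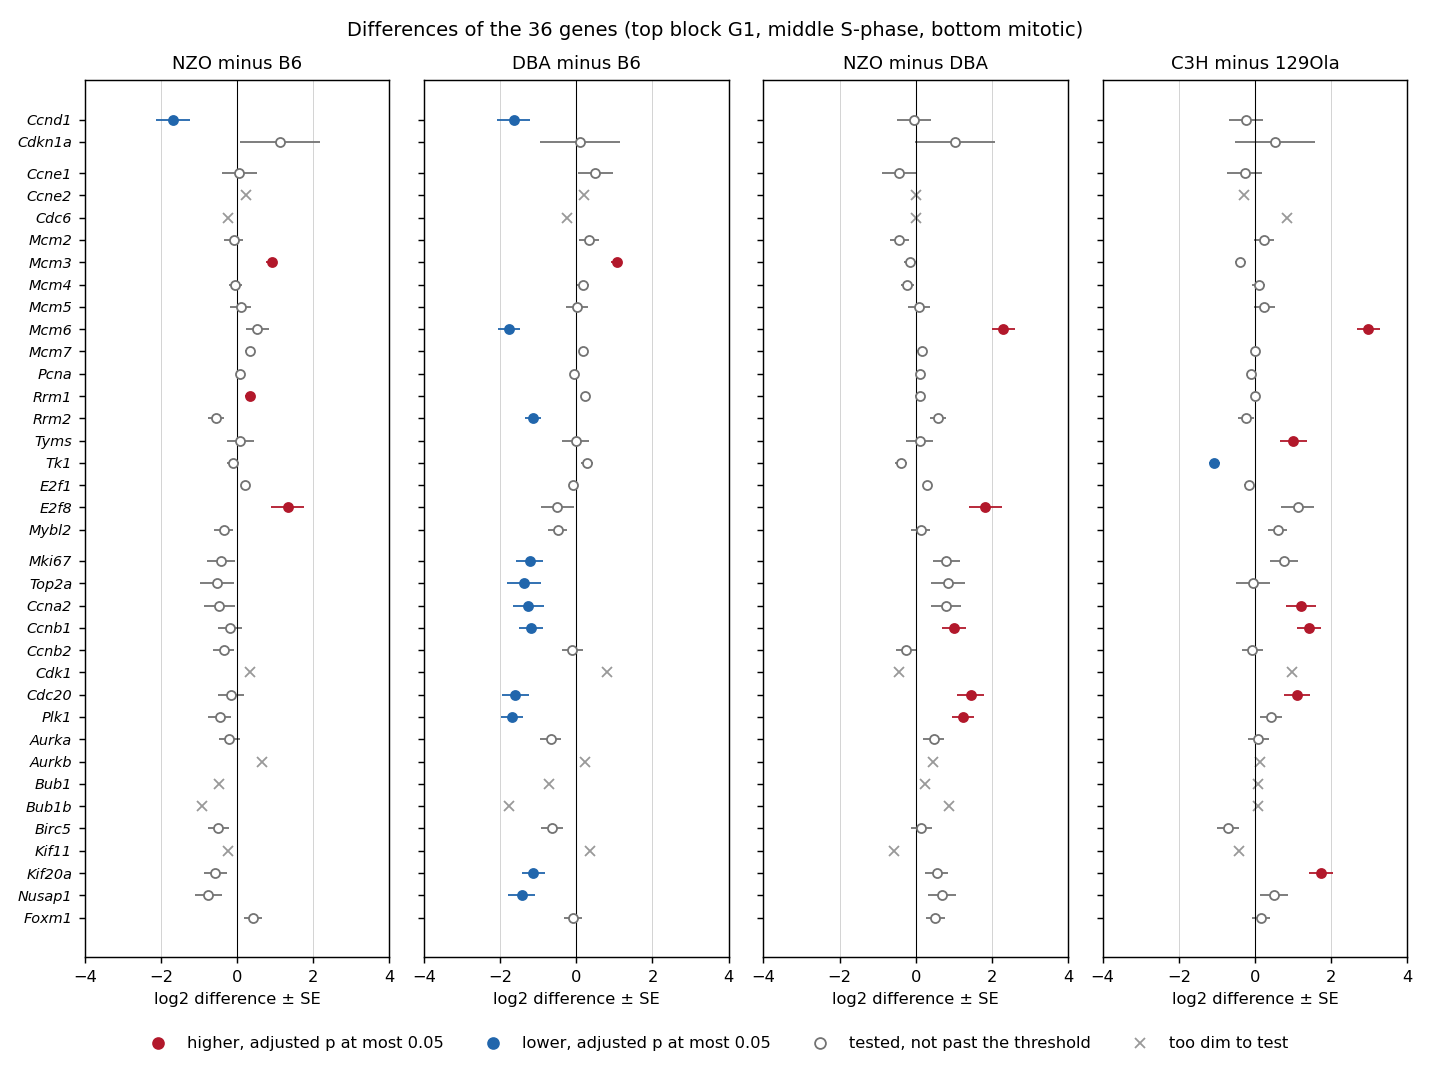
Log2 difference ± SE of each of the 36 genes in 4 strain comparisons, with G1 genes at the top, S-phase genes in the middle and mitotic genes at the bottom. Filled points passed an adjusted p of 0.05, open points did not, and crosses are genes too dim to test. In DBA minus B6, 8 mitotic genes are called and all 8 lie left of 0.

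C3H liver had more RNA of 4 mitotic genes than 129Ola liver. Of 12 mitotic genes tested, Ccna2, Ccnb1, Cdc20 and Kif20a were higher in C3H and none was lower. Of 15 S-phase genes tested, Mcm6 and Tyms were higher and Tk1 was lower. Together these are 6 higher and 1 lower of 29, in a comparison where 15.4% of all genes tested were higher and 22.6% lower, 38% in all. Taken in both directions, the members called are a smaller share than over all genes. Scaling to the probes detected on all arrays shifted every difference by 0.16 and turned the balance over all genes to 4551 higher and 2580 lower, where it was 3171 and 4658. The median difference of all 17 mitotic genes was 0.16 (-0.107 with normexp background correction, under which the calls of all 4 mitotic genes were lost), that of the S-phase genes 0.01 and that of all genes on the array -0.17.

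Kif20a had levels of -2.81, -2.50, -2.38 and -1.59 in C3H mice 1, 2, 3 and 5, against -4.51, -4.54, -3.96 and -3.20 in 129Ola mice 4, 5, 7 and 9. No 129Ola mouse was above background, 3 of 4 C3H mice were, and the groups did not overlap. Because of that, the level was at least 1.38-fold higher in C3H. The adjusted p of 0.000394 is that of the fitted log2 difference, which uses signals below background, and is no test of this bound. Ccnb1 had -2.22 ± 0.26 in C3H and -3.63 ± 0.74 in 129Ola (SD, n = 4 each), again with no 129Ola mouse above background. It was at least 1.43-fold higher in C3H, with an adjusted p of 0.00233 for the fitted difference. Cdc20 had -0.95, -1.56, -0.97 and 0.01 in C3H mice, against -2.31, -2.39, -1.98 and -1.21 in 129Ola mice. Among 129Ola mice, 129Ola 9 reached into the C3H range, and the difference was 1.10 ± 0.35 (adjusted p = 0.0202). The call of Cdc20 was lost without C3H 5, 129Ola 4 or 129Ola 5, and that of Ccna2 (1.21 ± 0.40, adjusted p = 0.0244) without C3H 5 or 129Ola 4. Ccna2 was above background in 1 of 4 129Ola mice, and its call was lost in 7 of 10 alternative runs.

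Tk1, the thymidine kinase of the salvage pathway, had levels of 2.25, 2.05, 2.28 and 1.83 in C3H mice, against 3.56, 3.26, 2.87 and 2.99 in 129Ola mice. All C3H mice lay below all 129Ola mice, and Tk1 was 2.09-fold lower in C3H (-1.06 ± 0.16, adjusted p = 5.92e-05). Its second bright probe gave -1.15 (adjusted p = 0.000116 over probes). Tyms makes thymidylate by the other route, from deoxyuridylate, and was at least 1.16-fold higher in C3H, with 0 of 4 129Ola mice above background. The adjusted p of 0.0307 for Tyms is that of the fitted difference, not of the bound. The call of Tyms was lost in 5 of 20 runs without 1 mouse, and the sign turned (-0.046) under another background correction.

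The MCM genes encode the hexamer that unwinds DNA at the fork, whose subunits work in equal numbers, and Mcm6 was the member that differed between strains by most. Mcm6, read by 1 probe at chr1:130228178-130228237 (mm9), had levels of 3.43, 3.35, 3.39 and 3.50 in NZO mice, 1.96, 0.41, 0.62 and 1.45 in DBA mice and 3.07, 2.78, 2.87 and 2.80 in B6 mice. In C3H mice it had 2.91, 2.71, 2.70 and 3.62, against -0.35, -0.05, -0.31 and 0.75 in 129Ola mice. The 20 mice fell into 2 separate ranges, with NZO, B6 and C3H at 2.70 or higher and DBA and 129Ola at 1.96 or lower. Mcm6 was 4.94-fold higher in NZO than in DBA (2.30 ± 0.30, adjusted p = 1.79e-05), 3.41-fold lower in DBA than in B6 (-1.77 ± 0.30, adjusted p = 0.000317) and 7.86-fold higher in C3H than in 129Ola (2.97 ± 0.30, adjusted p = 8.93e-07). The calls for NZO against DBA and C3H against 129Ola held in each alternative run. Against B6, NZO mice all lay above B6 mice, with a difference of 0.54 ± 0.30 (adjusted p = 0.249). Whether the strains differ in sequence under this probe was not tested.

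Mcm2, Mcm4, Mcm5 and Mcm7 passed in none of the 5 comparisons, although Mcm7 did in NZO against B6 under some alternatives. Mcm7, also a host gene of microRNAs, averaged 2.72 ± 0.08 in NZO, 2.57 ± 0.24 in DBA, 2.39 ± 0.16 in B6, 2.63 ± 0.10 in C3H and 2.62 ± 0.16 in 129Ola (SD, n = 4 each). NZO mice all lay above B6 mice for Mcm7 (0.34 ± 0.12, adjusted p = 0.0542). In 2 strains the MCM genes ranked the mice alike: for 6 of 6 genes DBA 5 and DBA 15 both lay above DBA 8 and DBA 9, and C3H 5 was the highest C3H mouse for 6 of 6. In NZO, B6 and 129Ola no mouse was the highest for all 6.

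**Figure D4:**
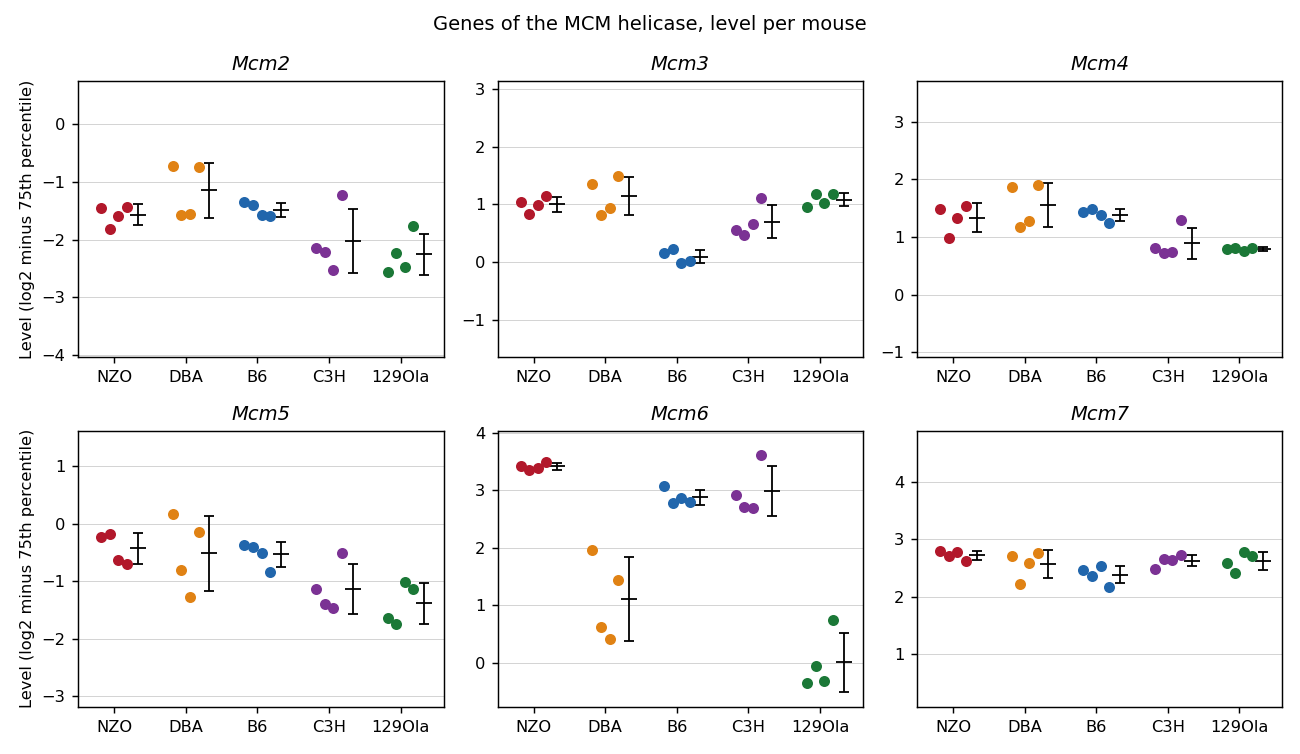
Level per mouse of the 6 MCM genes, in log2 signal minus the array's 75th percentile, with a point per mouse and a bar for the mean ± SD of 4 mice. All panels span the same number of log2 units. The DBA and 129Ola mice lie at 1.96 or lower for Mcm6 and all other mice at 2.70 or higher, and the Mcm3 panel shows its brighter probe.

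Mcm3 has 2 probes that overlap by 43 bases on chr1 (mm9, minus strand) and gave opposite directions against B6. The brighter probe, at chr1:20793119-20793178, was designed on a cDNA clone and the other, at chr1:20793136-20793195, on the RefSeq transcript. They differ by 1 base in the overlap, A31G, counted from 1 at the 5′ end of the RefSeq probe, whose base is given first. Bases 18 to 47 of the RefSeq probe and the same stretch of the clone probe are shown because they hold this difference, in capitals.
RefSeq probe: aagctttctttgcAattagactagtatgta
Clone probe: aagctttctttgcGattagactagtatgta
With the clone probe Mcm3 was higher in NZO (0.91 ± 0.15, adjusted p = 0.000279) and in DBA (1.06 ± 0.15, adjusted p = 5.63e-05) than in B6, with no overlap of mice. NZO mice had 1.04, 0.84, 1.00 and 1.14 and DBA mice 1.36, 0.93, 0.82 and 1.50, against 0.15, 0.23, -0.01 and 0.01 in B6 mice. The RefSeq probe gave -0.64 in NZO (adjusted p = 0.00659 over probes) and -0.54 in DBA (adjusted p = 0.0233), the opposite direction. No direction is therefore given for the Mcm3 transcript in these 2 comparisons. For C3H against 129Ola the clone probe gave -0.38 ± 0.15 (adjusted p = 0.0556) and the RefSeq probe -0.50 (adjusted p = 0.0193 over probes).

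Cdkn1a encodes p21, the inhibitor of cyclin-dependent kinases that p53 induces, and spread widely within 2 strains. It had levels of -2.54, -2.15, 2.40 and 3.19 in 129Ola mice 4, 5, 7 and 9, so that these 4 mice split into a low and a high pair. The same mice split for Ccne1, the cyclin of the G1 to S transition, with 0.86, 1.77, -0.73 and -0.93, in the opposite direction. Clock genes split them too: Dbp, a clock output factor, had 7.87, 7.73, 1.66 and 2.93 and Arntl, the positive arm of the clock, -0.33, -1.17, 2.64 and 2.55. DBA mice spread for Cdkn1a as well, with 2.95, 0.26, -0.98 and 0.85. The time of day of sampling is not given in the labels, and its part in these values was not tested. No Cdkn1a comparison passed. With 129Ola 4 and 5 both left out, an alternative chosen after seeing the data, 4 members passed in C3H against 129Ola, and the calls of Ccna2, Ccnb1 and Cdc20 were lost.

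**Figure D5:**
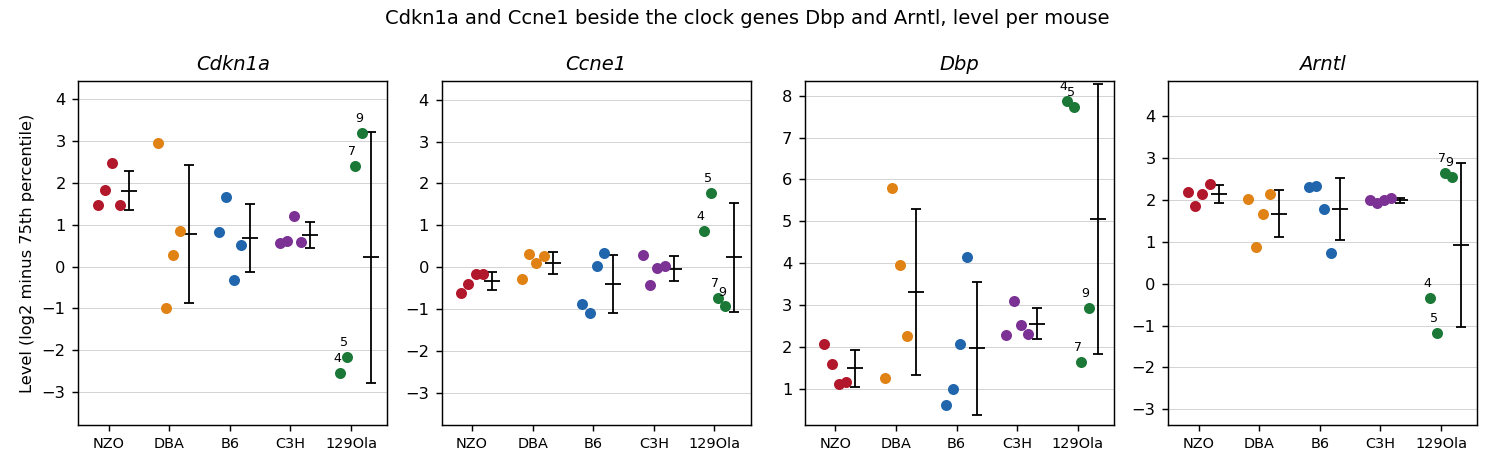
Level per mouse of Cdkn1a, Ccne1 and the clock genes Dbp and Arntl, in log2 signal minus the array's 75th percentile, with a point per mouse and a bar for the mean ± SD of 4 mice. The numbers name the 129Ola mice: 4 and 5 are low for Cdkn1a and Arntl and high for Ccne1 and Dbp.

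Susceptible strains were set against resistant strains as the mean of 2 differences, NZO and DBA against B6 and C3H against 129Ola. Of 29 genes tested 2 were higher (Mcm6, and Mcm3 by its brighter probe) and 4 lower (Ccnd1, Rrm2, Tk1 and Birc5), where 12.2% of all genes tested were higher and 17.4% lower, 29.6% in all. Taken in both directions, the members called are a smaller share than over all genes. The RefSeq probe of Mcm3 gave -0.54 (adjusted p = 0.000707 over probes), the opposite direction, so no direction is given for the Mcm3 transcript here either. With arrays scaled to the detected probes 3228 of all genes were higher and 2899 lower, where it was 2524 and 3588. Mice of the classes overlapped for all 36 genes, as they did for all but 0.965% of genes tested. Rrm2 was lower by 0.54 ± 0.14 (adjusted p = 0.00823), Tk1 by 0.49 ± 0.10 (adjusted p = 0.00183), Birc5 by 0.64 ± 0.19 (adjusted p = 0.0181) and Ccnd1 by 0.95 ± 0.29 (adjusted p = 0.021). The dimmer second Birc5 probe gave -0.42 (adjusted p = 0.34 over probes), and the Birc5 call was lost with its probes averaged. With 129Ola 4 and 5 both left out, chosen after seeing the data, the calls of Birc5, Ccnd1 and Mcm3 were lost. Mcm6 was higher by 1.18 ± 0.20 (adjusted p = 0.000243), a mean of -0.62 in NZO and DBA against B6 and 2.97 in C3H against 129Ola. With slide as a random block 2 of the 6 calls were left, Mcm6 and Tk1. The mitotic median was -0.15. For 11 of the 29 genes the 2 differences that make up the class value differed from each other, beside 31.3% of all genes tested.

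Among mitotic genes above background in all mice of a strain, 1 mouse was often the highest. B6 9 was the highest B6 mouse for 11 of 12 such genes, C3H 5 the highest C3H mouse for 5 of 6, DBA 5 the highest DBA mouse for 6 of 9 and NZO 7 the highest NZO mouse for 6 of 11. These genes share an array in each mouse, so the counts describe these arrays and carry no test.

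Further genes of the same steps were read as lists. Of 34 other mitotic genes, 23 were tested: in DBA against B6, 7 were lower and 1 higher, with a median of -0.49 over all 34. The largest falls were those of Pttg1, the securin that holds sister chromatids together (-3.66 ± 0.14, adjusted p = 2.96e-12), Ccnf, an F-box cyclin (-2.20 ± 0.27), and Prc1, a bundler of the central spindle (-1.94 ± 0.51). Pttg1 and Ccnf were lower by similar amounts in NZO against B6 (-3.10 ± 0.14 and -2.21 ± 0.27), where 3 of the 23 were lower and none higher. Pttg1 averaged 1.76 in NZO, 1.20 in DBA, 4.86 in B6, 1.12 in C3H and 1.07 in 129Ola, and every B6 mouse had at least 4.67 where no other mouse had more than 1.94. In NZO against DBA 6 of the 23 were higher and none lower, led by Ect2, a regulator of cleavage (1.59 ± 0.35), and Cdkn3, a phosphatase of cyclin-dependent kinases (1.54 ± 0.40, above background in 1 of 4 DBA mice). In C3H against 129Ola 7 were higher and 1 lower, among them Racgap1 (1.55 ± 0.35) and the kinesin Cenpe (1.45 ± 0.41), each above background in 1 of 4 129Ola mice. The spindle factor Tpx2 was above background in 2 of 4 C3H mice and in 0 of 4 129Ola mice. Its C3H mean, which includes mice below background, lay only 1.01-fold above the floor in 129Ola. The adjusted p of 0.0264 is that of the fitted difference and does not test this bound. Over all genes tested the shares higher and lower were 7.28 and 8.09% (DBA against B6), 9.72 and 8.57% (NZO against B6), 9.76 and 8.27% (NZO against DBA) and 15.4 and 22.6% (C3H against 129Ola), which also hold for the lists that follow.

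Of 32 other replication genes, 30 were tested. In DBA against B6 the clamp loader subunit Rfc5 was lower (-0.34 ± 0.11), and the median over all 32 was 0.01. In NZO against B6, the chromatin assembly subunit Chaf1a (1.53 ± 0.20) and the primase subunit Prim1 (0.50 ± 0.15) were higher and Dbf4, the activator of the CDC7 kinase, was lower (-0.64 ± 0.22). In C3H against 129Ola 4 were higher and 3 lower, with Prim2, the other primase subunit, the furthest (3.28 ± 0.30, adjusted p = 2.95e-07). Prim2 was above background in 1 of 4 129Ola mice and in all mice of the other 4 strains.

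Of 22 other genes of G1 and of cell cycle exit, 18 were tested. The inhibitor Cdkn2c was lower than in B6 both in NZO (-2.17 ± 0.24, adjusted p = 3.67e-06) and in DBA (-1.55 ± 0.24, adjusted p = 0.000147), and E2f2, an activating E2F, was higher in both (1.05 ± 0.27 and 1.06 ± 0.27). In C3H the pocket protein Rbl2 was lower (-1.47 ± 0.15) and its relative Rbl1 higher (1.25 ± 0.31) than in 129Ola, where Rbl1 was above background in 1 of 4 mice. Of 17 targets of p53, 15 were tested, and 2 were lower and none higher in DBA against B6, Btg2 (-1.24 ± 0.29) and Phlda3 (-0.83 ± 0.16). In NZO against B6, 2 of the 15 were higher and 1 lower, and both counts lie near the shares over all genes, 15.4 and 18.3% in all. Of 12 clock genes 10 were tested, and 4 were lower in C3H against 129Ola, where 22.6% of all genes were.

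Some markers of other liver and blood cells also differed between strains, and their part in the differences was not tested. In DBA against B6, T and NK cell markers gave 1 higher and 2 lower of 7 tested. Sinusoidal endothelial markers gave 1 higher and 1 lower of 6 there, and none of 6 B and plasma cell markers tested passed. Kupffer cell and macrophage markers were lower in DBA than in B6 for 5 of 9 tested, with a mean level of 3.09 to 3.26 in DBA mice against 3.58 to 4.18 in B6 mice. In NZO 6 of the 9 were lower than in B6, at 3.01 to 3.27. In C3H 6 were lower and 1 higher than in 129Ola, at 2.54 to 3.42 against 2.98 to 3.44, and 8 of 9 were lower in the susceptible class. Of 6 stellate cell markers tested 3, and of 5 cholangiocyte markers tested 1, were lower in DBA than in B6. Cholangiocyte markers were also lower for 3 of 5 in NZO against B6 and 2 of 5 in C3H against 129Ola. Erythroid markers, which would follow red cell precursors, gave 3 of 5 tested higher in DBA than in B6, Klf1, Alas2 and Hemgn, while the red cell membrane genes Epb4.2 and Rhag were above background on 0 arrays and on 1 array. Granulocyte precursor and neutrophil markers had a mean level of -1.05 to -0.70 in NZO mice, -2.52 to -1.44 in DBA mice and -2.35 to -0.54 in B6 mice. Of the 8 tested, 2 were higher in NZO than in DBA and 2 were higher in C3H than in 129Ola, where C3H mice had -2.25 to -1.33 against -3.04 to -1.49 in 129Ola mice.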

How the data were processed

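Per the labels, liver RNA of 20 mice was labelled with Cy3 and hybridised to Agilent arrays, 1 array per mouse. The deposited intensity values were extracted, per the file headers, with Agilent Feature Extraction 11.0.1.1 (NZO, DBA, B6) and 11.5.1.1 (C3H, 129Ola), where the submitters' processing notes give 9.1. The processed signal is, per the file headers, a background-subtracted intensity with no normalization between arrays. The flags deposited beside it (other, 0 or 1) mark spots well above background, saturated spots (none) and outlier spots. The authors' value table (37892 probes, linear intensity) has columns with identical sorted values and a median of 19.9, and each of its 20 columns ranked its probes most like the scanner file of the same mouse (Spearman correlation at least 0.955). How the authors corrected its background, and any offset, is unknown.

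Of 62976 spots per array, 3671 controls and all outlier spots were left out and spots of 1 probe averaged, which left 55642 of 55681 probes. Log2 of the processed signal minus the array's 75th percentile over all probes is the level. On 9 of the 20 arrays under 50% of probes were well above background, so the percentile over the 19948 probes detected on all arrays was an alternative. The 28432 probes that were well above background in all 4 mice of 1 strain or more were tested. A gene is represented by its brightest such probe, or its brightest probe where none passed. The 36 members have 52 probes, 25 members having 1. The other genes were named through RefSeq accessions where these matched (28011 of 29780 probes that carry one). Coordinates of probes are those of the array files (mm9). Sequence under the probes was not compared between strains.

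Strain means were fitted to the 20 arrays together with limma 3.58.1 under R 4.3.3 (15 residual degrees of freedom, 17.1 with eBayes), and two-sided p-values were adjusted by Benjamini-Hochberg over 20624 genes. Each array was taken as 1 mouse from its animal number, so p-values rest on the spread between mice within strains. Their number, 4 per strain, limits the precision. A gene above background on no array of a strain has only a bound there, and "at least N-fold" sets the other strain's mean against a floor in the dim strain: in each dim array, the dimmest signal among probes well above background, or the gene's own signal if that is higher. An adjusted p given beside such a bound tests the fitted log2 difference, which uses signals below background, and not the bound. Python 3.11.15 was used for the rest.

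The members, the lists and the comparisons were chosen with earlier results of these data known. Of the other lists, the 3 genes with the largest log2 difference among those past the threshold in a comparison may be named, and all 36 members. Alternatives were other scalings, background corrections, filters and probe choices, the authors' table, blocks for slide, scan day and animal number, and leaving out mice.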

Additional observations from a re-analysis of the deposited data

Results flagged for a closer look

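In 8 of 180 groups of 4 mice (36 genes in 5 strains), 1 mouse lay so far from the other 3 that the gap, as a share of the group's whole range, exceeded Dixon's critical value. Chance alone gives about 1 such group in 20, so this number is not above what chance gives. In C3H, Mcm4 was 1.29 in mouse 5 and 0.72 to 0.82 in the others, Cdkn1a was 1.21 in mouse 3 and 0.57 to 0.61 in the others, and Cdc6 was -0.44 in mouse 1 and -5.26 to -4.87 in the others, the only array on which Cdc6 was above background. DBA 5 stood apart for Mybl2, a subunit of the complex that activates mitotic genes, at -0.49 where the other 3 had -1.73 to -1.53, and for Cdk1 at -1.81 where they had -3.63 to -3.40. The remaining 3 lay near background: Cdk1 was -3.98 in 129Ola 7 and -4.61 to -4.58 in the others, and Bub1b was -3.07 in B6 10 against -4.13 to -3.97, and -5.43 in C3H 2 against -4.81 to -4.76.

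For 11 of 29 genes the difference of NZO and DBA from B6 was itself different from that of C3H from 129Ola in a test of the difference (limma, adjusted p at most 0.05), beside 31.3% of all genes tested. The helicase gene Mcm6 had the largest, -3.59 (adjusted p = 3.14e-06), with -0.62 for NZO and DBA against B6 and 2.97 for C3H against 129Ola. For 4 mitotic genes the first value was negative and the second positive, and their difference was -2.08 for Ccna2 (adjusted p = 0.00673), -1.98 for Cdc20 (0.00365), -1.58 for Mki67 (0.0177) and -1.50 for Plk1 (0.00727), with Ccna2 and Plk1 above background in 1 of 4 129Ola mice. For 3 more the size and its p rest on values below background: -2.58 for Kif20a (adjusted p = 0.000142) and -2.10 for Ccnb1 (0.00108), above background on no 129Ola array, and -1.60 for Nusap1 (0.0175), above background on no array of C3H or 129Ola, so that the sign of its second value has no meaning. Mybl2 gave -1.02 (adjusted p = 0.0281), and Tk1 (1.16, adjusted p = 0.00042) and Mcm3 (1.37 by its brighter probe, adjusted p = 6.89e-05) ran the other way.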

How the results depend on the processing

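Members past the threshold numbered 4 for NZO against B6, 12 for DBA against B6, 5 for NZO against DBA, 7 for C3H against 129Ola and 6 for the classes. Leaving out 1 mouse at a time gave 2 to 4, 7 to 13, 4 to 7, 6 to 9 and 5 to 8. It moved the mitotic medians over -0.52 to -0.25, -1.23 to -0.91, 0.42 to 0.76, 0.14 to 0.36 and -0.20 to 0.02 in the same order, and the S-phase medians over 0.05 to 0.18, -0.047 to 0.18, -0.01 to 0.13, -0.03 to 0.11 and 0.05 to 0.15. For NZO against B6 the count was 2 with the percentile over probes detected on all arrays, with no filter on dim probes, with only the arrays of the strains compared and with both 129Ola 4 and 5 left out (added after seeing the data), where C3H against 129Ola gave 4. With the detected-probe percentile the S-phase median of C3H against 129Ola was 0.17. Normexp background correction gave counts of 10 for NZO against DBA and 2 for C3H against 129Ola, and mitotic medians of -0.046 for NZO and -0.31 for DBA against B6. The authors' table gave a mitotic median of -0.68 for DBA against B6. With only probes above background on all arrays, which tests fewer members, counts were 5 for DBA against B6, 2 for NZO against DBA and 4 for C3H against 129Ola. The slide as a random block (correlation 0.379) gave 3 for C3H against 129Ola and 2 for the classes. Scan day as a block gave 2 for NZO against DBA, and medians in DBA against B6 of 0.14 (S-phase) and -0.78 (mitotic). Animal numbers did not pair the mice: deviations of same-numbered mice correlated at -0.26 and 0.05 (NZO, B6), -0.34 and 0.02 (DBA, B6), 0.38 (NZO, DBA) and 0.07 (C3H, 129Ola). The replicate block on these numbers left 1, 3, 1, 3 and 0 members and a mitotic median of 0.54 for C3H against 129Ola.

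Signs turned for the mitotic median of C3H against 129Ola (-0.107 with normexp, 0.16 as reported) and for S-phase medians near 0: DBA against B6 (-0.039 with the detected-probe percentile, -0.0045 with normexp), NZO against DBA (-0.0025 with the scan-day block) and C3H against 129Ola (-0.065 with the replicate block, -0.057 without 129Ola 4 and 5). Directions reversed for Tyms in C3H against 129Ola under normexp (-0.046), for Mcm3 between classes with its probes averaged (-0.12), and for Mcm3 with its RefSeq probe (-0.64 for NZO and -0.54 for DBA against B6, -0.54 between classes, added after seeing the data). The cause of these shifts was not tested, except where fewer genes or mice entered. Scaling moved the balance over all genes, and with quantile normalization it was 3233 higher and 3457 lower for C3H against 129Ola and 1696 and 2026 for NZO against B6. Genes below background in a strain, such as Kif20a and Ccnb1 in 129Ola, have only bounds there.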

Other observations

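Read in order of level, the strain means of Ccnd1 were 1.95 in B6, 1.63 in 129Ola, 1.39 in C3H, 0.31 in DBA and 0.27 in NZO. Those of Mki67 were -0.18 in B6, -0.60 in NZO, -1.08 in C3H, -1.40 in DBA and -1.84 in 129Ola. The places of C3H and 129Ola in these orders cannot be told apart from their software version and scan days. Ccnd1 also overlapped between C3H mice (0.96 to 2.28) and 129Ola mice (0.95 to 2.25). Kif11, the spindle motor, was above background in 2 mice, 1 DBA and 1 B6, and Bub1b, a kinase of the spindle checkpoint, in 3 mice, all of them B6.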
